A study of Mus musculus with 2 samples.

Results

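The 10 genes described here encode the core of MHC class I and class II antigen presentation and were chosen by name: H2-Aa, H2-Ab1, H2-Eb1, Cd74 and Ciita for class II, and H2-K1, H2-D1, B2m, Tap1 and Tapbp for class I. They have 23 of the 45281 probes on the array, 10 for class II and 13 for class I. The samples were bone marrow LSK cells, sorted as negative for lineage markers and positive for Sca1 and c-Kit, a population made of haematopoietic stem cells and their earliest progeny. The control sample has the genotype Control and the other the genotype Ago2 Hem KO, and both are of the C57BL/6J strain. Ago2 encodes an Argonaute protein, which silences messenger RNAs with microRNAs as guides. The promoter or Cre behind the knockout, the age of the mice and the number of animals behind each sample are not given in the sources used here. There was 1 Illumina bead array per genotype, so no value has a replicate error, no test was run, and precision is limited by having so few arrays.

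MHC class I molecules are pairs of a heavy chain and β2-microglobulin that show peptides from inside the cell to CD8 T cells on nearly every cell type. MHC class II molecules are α and β chain pairs that show peptides from the endosomal route to CD4 T cells, mainly on B cells, dendritic cells and macrophages. Class II genes are switched on by the coactivator CIITA and class I genes by its relative NLRC5, both of which dock on factors bound to promoter elements known as the X and Y boxes.

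The labelled cells were set against their markers. Kit had a signal of 2071 for the control and 2793 for the knockout, and Cd34, Meis1 and Gata2 were also detected on both arrays. Hlf, Procr and Flt3 were detected on neither array, and Ly6a, which encodes Sca1, was not analysed here. All 3 Ago2 probes were detected on both arrays, with signals of 288 and 180, 226 and 181, and 106 and 103, or 2.44-fold, 1.73-fold and 1.36-fold lower after normalization. A probe was called detected where its detection p, the share of negative control probes that were brighter, was under 0.01. This held for 32.8% of control probes and 34.4% of Ago2 Hem KO probes. Signals were background-corrected, normalized to one distribution and put on the log2 scale, and each difference given is Ago2 Hem KO minus control. Before normalization, probes detected on both arrays were a median 1.11 times as bright on the Ago2 Hem KO array. The 4 LSK markers detected on both arrays lay above 0, as did 41.8% of all genes detected on both. Kit was at 0.22, Cd34 at 0.30, Meis1 at 0.14 and Gata2 at 0.45, and the dimmer probes of Kit and Meis1 at 0.12 and 1.25. Mecom was detected on the Ago2 Hem KO array only, as were 2.31% of all genes.

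Promoters of the presenting chains were searched for cores of the X and Y boxes, and 5 are shown because CIITA and NLRC5 act through these elements in both classes. RefSeq windows (GRCm38.p6) of 250 bases before to 50 bases after the start were matched for 7 of the 10 genes. The 150 bases just before the start are printed 5′ to 3′ in the direction of the gene for 5 of them. H2-K1 had 2 windows, and the more upstream was taken. The RefSeq bounds of H2-K1 reach to 34000619, so its printed stretch lies inside them. Capitals mark the Y box core (CCAAT, or ATTGG on the other strand) and the core of the X2 part of the X box (TGACG, or CGTCA on the other strand).
H2-Aa (chr17:34287824-34287973, minus strand): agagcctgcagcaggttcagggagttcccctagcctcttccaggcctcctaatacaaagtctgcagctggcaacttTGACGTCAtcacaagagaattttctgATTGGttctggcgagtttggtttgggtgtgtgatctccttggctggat
H2-Eb1 (chr17:34305717-34305866, plus strand): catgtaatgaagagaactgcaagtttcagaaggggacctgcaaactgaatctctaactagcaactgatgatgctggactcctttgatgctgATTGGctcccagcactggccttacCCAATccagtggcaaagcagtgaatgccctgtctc
H2-K1 (chr17:34000348-34000497, minus strand): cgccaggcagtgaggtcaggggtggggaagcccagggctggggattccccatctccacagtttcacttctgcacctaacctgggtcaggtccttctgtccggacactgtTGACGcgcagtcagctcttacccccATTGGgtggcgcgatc
H2-D1 (chr17:35262944-35263093, plus strand): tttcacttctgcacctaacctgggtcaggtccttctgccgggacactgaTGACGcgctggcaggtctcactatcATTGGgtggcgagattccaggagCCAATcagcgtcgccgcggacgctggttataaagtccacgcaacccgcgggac
B2m (chr2:122147537-122147686, plus strand): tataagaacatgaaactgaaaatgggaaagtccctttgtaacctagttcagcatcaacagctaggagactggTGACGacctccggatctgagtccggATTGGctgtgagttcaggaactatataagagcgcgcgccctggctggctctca
In H2-Aa the X2 core was found on both strands, overlapping in a single run of letters. An X2 core followed by ATTGG, with 15 to 25 bases between them, stood in the windows of H2-Aa, H2-K1, H2-D1 and B2m. The gap was 21 bases in H2-Aa and 20 bases in the 3 class I genes. Such a pair, a search made after these sequences had been read, was present in 82 of 32851 windows (0.25%). It was searched in this order and in the direction of the gene only. A Y box core stood in 37.4% of windows and an X2 core in 20.8%, each counted on either strand and with or without the other. H2-Eb1 had 2 Y box cores and no exact match to the X2 core in its window. Only exact letters were searched, so the lack of a match does not show that an X box is absent. Tap1, which encodes a subunit of the peptide transporter, had an X2 core 86 bases before its start and a Y box core 222 bases before it, in the reverse order. Tapbp had 2 Y box cores and no exact match to the X2 core. An interferon response element core (GAAA, any 2 bases, GAAA, searched on both strands) was found in B2m alone among the 7 windows, 139 bases before the start, and in 3.44% of all windows. A GAS core (TTCNNNGAA, which reads the same on both strands) was found in 0 of the 7 and in 8.30% of all windows. Both of these cores were also searched by exact letters only. The lack of a match does not show that an interferon response element or GAS is absent. A match is a run of letters and not a measured binding site.

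Of the 10 genes, 9 were detected on both arrays, and none of these 9 differed 2-fold between the samples, where 0.438% of the 8212 genes detected on both arrays did. The differences were small and mixed. The β chain genes H2-Ab1 and H2-Eb1 were lower in the Ago2 Hem KO sample, the α chain gene H2-Aa was higher, and the class I heavy chain gene H2-D1 and the transporter gene Tap1 were slightly higher, each with that sign under all 9 processing settings. At a threshold of 1.5-fold, which 3.8% of all genes passed, H2-Eb1 was the only member. It was under that threshold in 4 of 8 alternative settings. Changing the detection filter or averaging probes could not move H2-Eb1, which has a single detected probe. Among the alternatives that could move it, only cyclic loess left it at the threshold, with a log2 difference of -0.585.

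**Figure D1:**
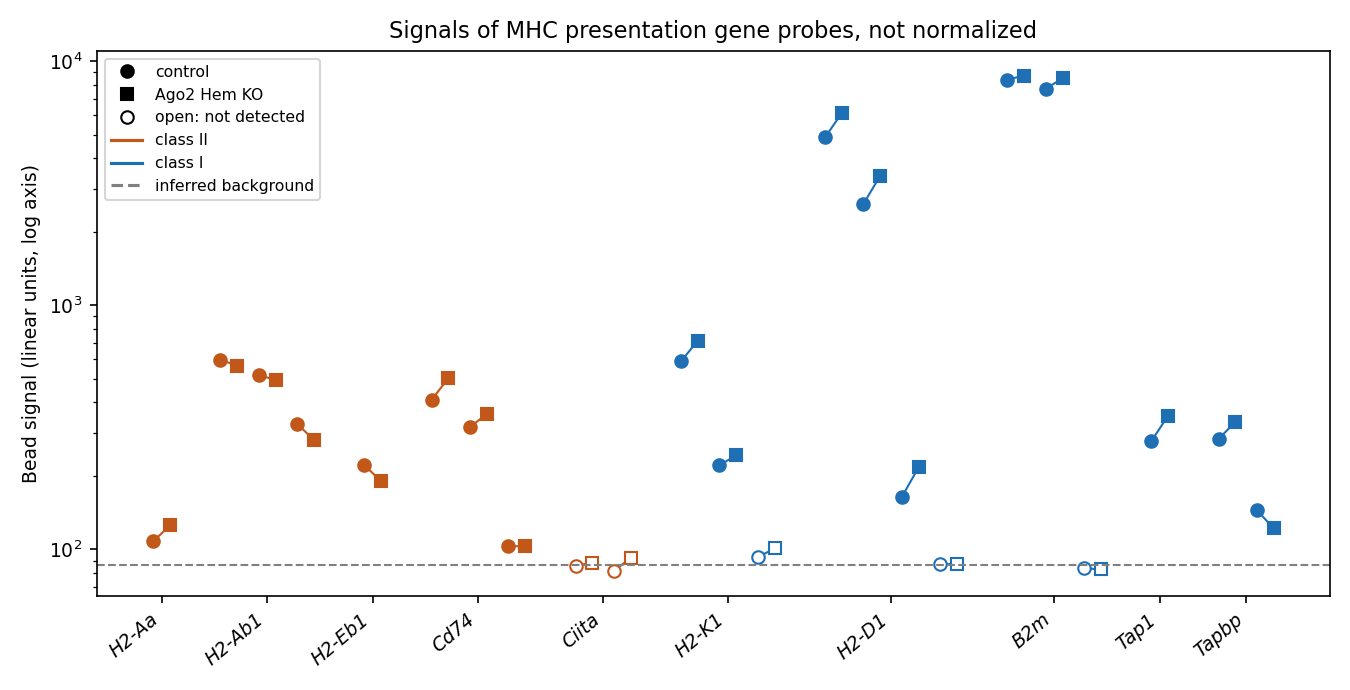
Bead signals before normalization (log axis) for the 23 probes of the 10 genes, control as circles and Ago2 Hem KO as squares, joined per probe. Filled symbols were detected and open ones were not, and the dashed line is the mean of the inferred backgrounds. The H2-Ab1 and H2-Eb1 probes slope down, both Ciita probes lie at background, and the H2-D1 probes that were detected slope up.

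Among the class II chains, H2-Ab1, the β chain of the I-A molecule, was measured by 3 probes. Its brightest probe had signals of 598 (control) and 566 (Ago2 Hem KO), the next 519 and 493, and the dimmest 327 and 281. All 3 were lower in the Ago2 Hem KO sample before any normalization, on an array whose detected probes were brighter in the median. After normalization the log2 differences were -0.33, -0.33 and -0.56. The first of these, a 1.26-fold lower value, stood at the 12.2nd percentile of all genes. H2-Eb1, the β chain of the I-E molecule, had a single probe, with signals of 221 and 190. Its log2 difference was -0.64, or 1.56-fold lower, at the 1.30th percentile of all genes. Among the 2053 genes of its own quartile of brightness, the central 95% of differences ran from -0.58 to 0.60, and H2-Eb1 lay just outside. Its difference was smaller in size without background correction (-0.42), with an offset of 50 (-0.51), with arrays scaled to the same median (-0.40) and in the authors' value table (-0.39), each under 1.5-fold. C57BL/6 mice are known to lack a working α chain gene for I-E, and the H2-Ea probe was at background, with signals of 85.0 and 82.0.

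H2-Aa, the α chain that pairs with H2-Ab1 in I-A, had a single dim probe with signals of 108 and 126. The inferred background lay at 84.7 and 87.8, so only 23.2 and 37.8 units stood above it. The log2 difference was 0.22, inside the central 95% range of -0.67 to 0.61 of the genes in the dimmest quartile. The 2 partner chains of I-A thus had opposite signs, with the α chain measured close to background. Cd74 encodes the invariant chain, which guides class II molecules to the endosome and fills their groove on the way. Its probes had signals of 410 and 502, of 317 and 359, and of 103 and 103. The log2 differences were 0.10, -0.05 and -0.32, so the sign depended on the probe, and the lowest came from a probe 18.4 and 15.3 units above background. Ciita, the coactivator gene, was detected on neither array by either of its 2 probes, with signals of 85.9 and 88.2 and of 81.7 and 92.3, so no fold is given.

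Among the class I heavy chains, H2-D1 had 3 detected probes, and all were higher in the Ago2 Hem KO sample. Their signals were 4867 and 6134, 2598 and 3395, and 164 and 217. The log2 differences were 0.11, 0.19 and 0.33, the first at the 74.7th percentile of all genes. The fourth H2-D1 probe was at background on both arrays. H2-K1 had 2 detected probes of opposite sign. Signals of 591 and 716 gave a log2 difference of 0.07, and signals of 221 and 243 gave -0.11. Its remaining probe did not pass the detection threshold, with detection p of 0.0459 for the control and 0.0128 for the Ago2 Hem KO array. The class I heavy chain genes are near-identical copies of each other, so which of them a probe measured is uncertain.

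B2m encodes β2-microglobulin, the light chain of every class I molecule. Its 2 detected probes had signals of 8392 and 8726 and of 7708 and 8496, with log2 differences of -0.15 and -0.04. Both raw ratios, 1.04 and 1.10, were under the median ratio of 1.11 of the detected probes, and with arrays scaled to the same median the brightest probe had the opposite sign (0.02). Tap1 was measured by a single probe with signals of 277 and 353. Its log2 difference of 0.18 stood at the 82.3rd percentile of all genes. Tapbp encodes tapasin, which holds empty class I molecules at the peptide transporter. Its probes disagreed: the brighter had signals of 283 and 333 and a log2 difference of 0.03, and the dimmer 145 and 122 and a difference of -0.85, or 1.81-fold lower. The 2 probes are annotated to different transcript records of the gene. Of 3016 genes with at least 2 detected probes, 25 (0.829%) had a gap between the brightest probes as large as the 0.88 of Tapbp. The other members with several detected probes had gaps from 0.00 to 0.18, and the median gap of all genes was 0.18. These gaps compare the 2 brightest probes only. The dimmest detected probes of H2-Ab1 (-0.56), Cd74 (-0.32) and H2-D1 (0.33) lay further from the brightest.

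**Figure D2:**
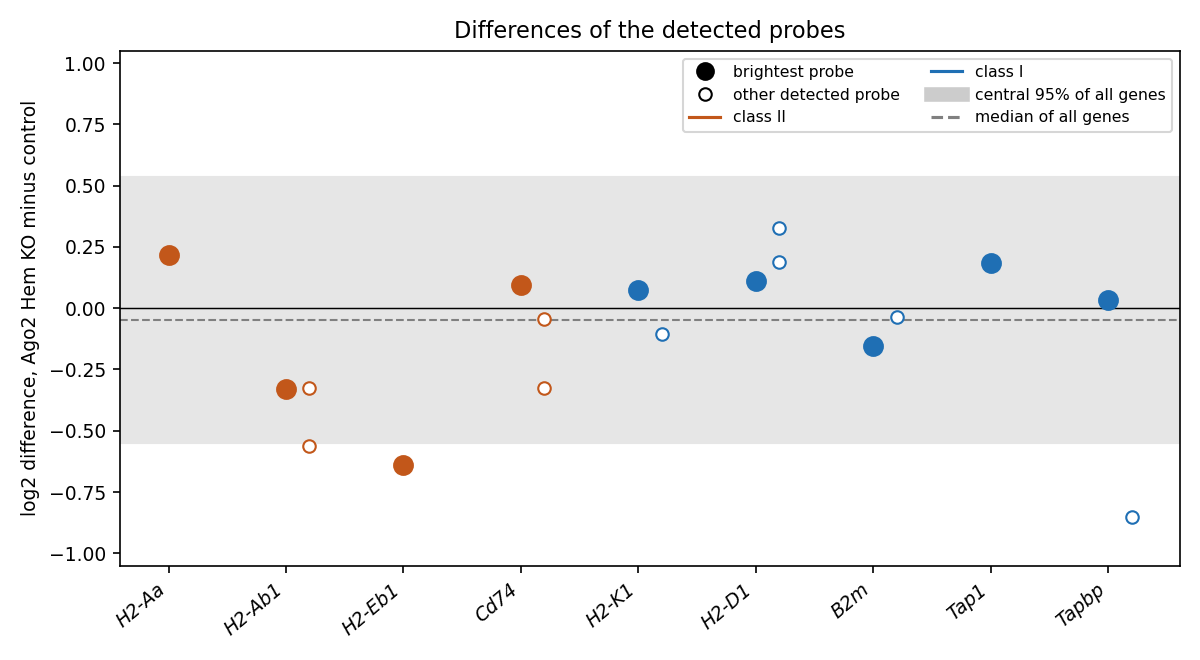
Log2 differences of the 18 probes detected on both arrays, Ago2 Hem KO minus control, with the brightest probe of each gene filled and the others open. The band spans the central 95% of all genes (-0.55 to 0.53). The H2-Eb1 probe, the dimmest H2-Ab1 probe and the dimmer Tapbp probe lie below the band, and no probe lies above it.

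Class I was then set against class II. Taking the brightest probe of each gene, 4 of 5 class I genes lay above 0, all but B2m, against 2 of 4 detected class II genes. Over all genes the share above 0 was 41.8%, and with arrays scaled to the same median, which moved the median of all genes from -0.05 to 0.16, it was 75.8% and class I counted 5 of 5. The class I median was 0.07 (range -0.15 to 0.18) and the class II median -0.12 (range -0.64 to 0.22), beside a median of -0.05 over all genes. The difference between the medians, class II minus class I, was -0.19. The ranges of the classes overlapped, and no replicate error is at hand for this difference. All detected probes gave the same order, with 6 of 10 class I probes and 2 of 8 class II probes above 0 beside 43.3% of all detected probes, and with medians of 0.05 and -0.33. Probes of the same gene are not independent, and H2-Ab1 and Cd74 gave 3 each of the 8 class II probes. Averaging the detected probes of each gene in place of the brightest left 2 of 5 class I genes above 0.

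**Figure D3:**
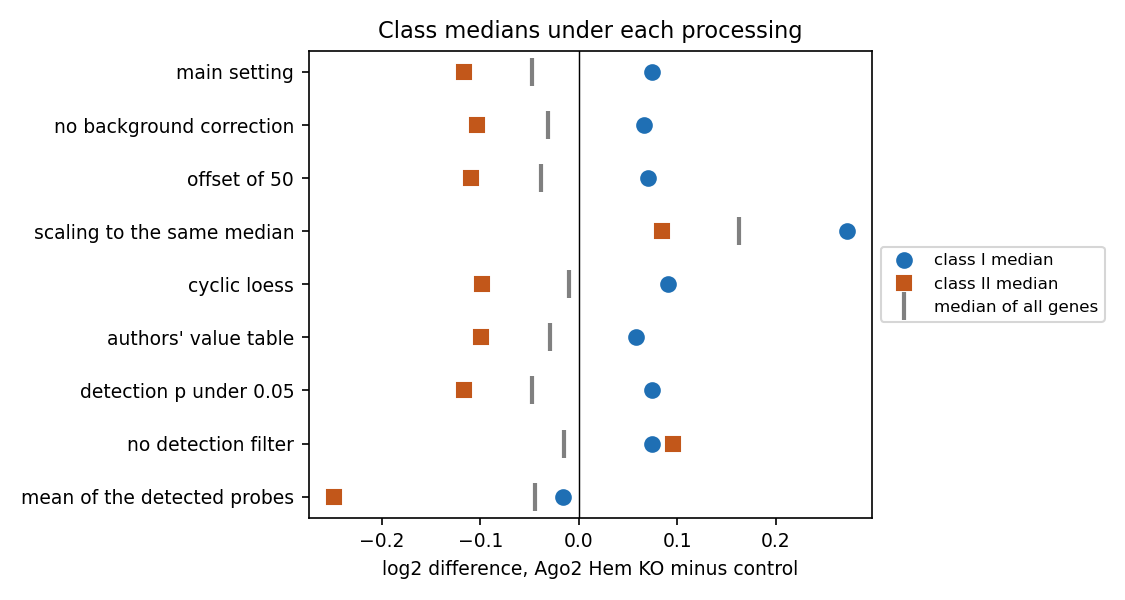
Median log2 difference of the class I genes (circles), the class II genes (squares) and all genes (bars) under each of 9 processing settings. The class II median lies left of the class I median in every setting but the one with no detection filter, where the undetected Ciita enters.

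The remaining steps of the class I route differed little. The 4 detected genes of peptide loading ran from Tap2, the other transporter subunit, at 0.01 to Pdia3, a disulfide isomerase of the loading complex, at 0.17. All 4 lay above 0, where 41.8% of all genes did, and with arrays scaled to the same median, where 75.8% did, they ran from 0.22 to 0.35. The immunoproteasome subunits, which cut the peptides, were at 0.15 for Psmb8, 0.13 for Psmb9 and 0.11 for Psmb10, with signals of 3816 and 4916, 1359 and 1708, and 2026 and 2548. The dimmer Psmb8 probe had the opposite sign (-0.16). The activator genes Psme1 and Psme2 were at -0.04 and -0.05, and Psme3 at 0.05. Psmb9 and Tap1 lie next to each other, start to start.

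Other class I and class I-like genes spread more widely, with a median of -0.09 over 11 detected genes, 3 of them above 0. H2-Q6, a non-classical heavy chain gene, had signals of 385 and 663, a 1.58-fold higher value in Ago2 Hem KO cells (0.66). Its other probe was at 0.57, and the probes of the neighbouring copy H2-Q8 were at 0.42 and 0.32, while H2-Q7 was at -0.14. A dimmer H2-Q7 probe was detected on the Ago2 Hem KO array only, with signals of 92.7 and 107. H2-Q6, H2-Q7 and H2-Q8 are near-identical too, so the source of the signal is uncertain. At the other end, Fcgrt, the Fc receptor chain that recycles antibody, was at -0.74 with signals of 303 and 239, and its dimmer probe at -0.10. Hfe, the iron-regulating class I-like gene, was at -0.65 with signals of 288 and 240, and its dimmer probe at -0.64. H2-Ke6, counted in this list at -0.08, encodes a steroid dehydrogenase and only shares the name of the locus.

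The genes that act on class II molecules after assembly had no common direction. H2-DMa and H2-DMb1, which together exchange the invariant chain fragment for peptide, were at 0.06 (the dimmer H2-DMa probe at -0.12) and -0.13, and the alternative β chain H2-DMb2 at -0.24. H2-Oa and H2-Ob, the chains of a molecule that restrains this exchange, were at -0.18 and 0.26. Of the endosomal enzymes, the protease genes Ctsb and Lgmn were at 0.35 and -0.38, the protease inhibitor gene Cst3 at 0.30 and the thiol reductase gene Ifi30 at 0.21, with its dimmer probe at -0.22. Ctsd, with signals of 96.2 and 118, was detected only in the Ago2 Hem KO sample and was at least 1.39-fold higher there. Marchf8, whose product marks class II molecules with ubiquitin, was also detected only there, at a signal of 102. Ctss, the protease that trims the invariant chain, was detected on neither array.

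Of the 7 detected promoter factors, Nlrc5, the class I coactivator gene, was highest at 0.46 with signals of 159 and 222. Zxdc was lowest of these at -0.27, and the Y box binding genes Nfya, Nfyb and Nfyc were at 0.01, -0.22 and -0.08. Rfx5 and Rfxank, subunits of the X box factor, were detected on neither array, and the third subunit gene Rfxap was at -0.08. Of the interferon and NF-kB regulators, the receptor chain gene Ifngr2 was highest at 0.56, though 1 of its 3 probes lay below 0, and its partner Ifngr1 was lowest at -0.24. Irf1, an interferon-induced factor that acts on class I promoters, was above 0 on all 5 probes, from 0.01 to 0.53. In total, of 45 further pathway genes detected on both arrays, 22 lay above 0 and 23 below, beside 41.8% and 58.1% of all genes. At 1.5-fold or more, 1 was higher and 2 were lower, thresholds that 1.9% of all genes passed in each direction, and 0 reached 2-fold. Their median was 0.00, and 37 of the 45 lay above 0 with arrays scaled to the same median.

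**Figure D4:**
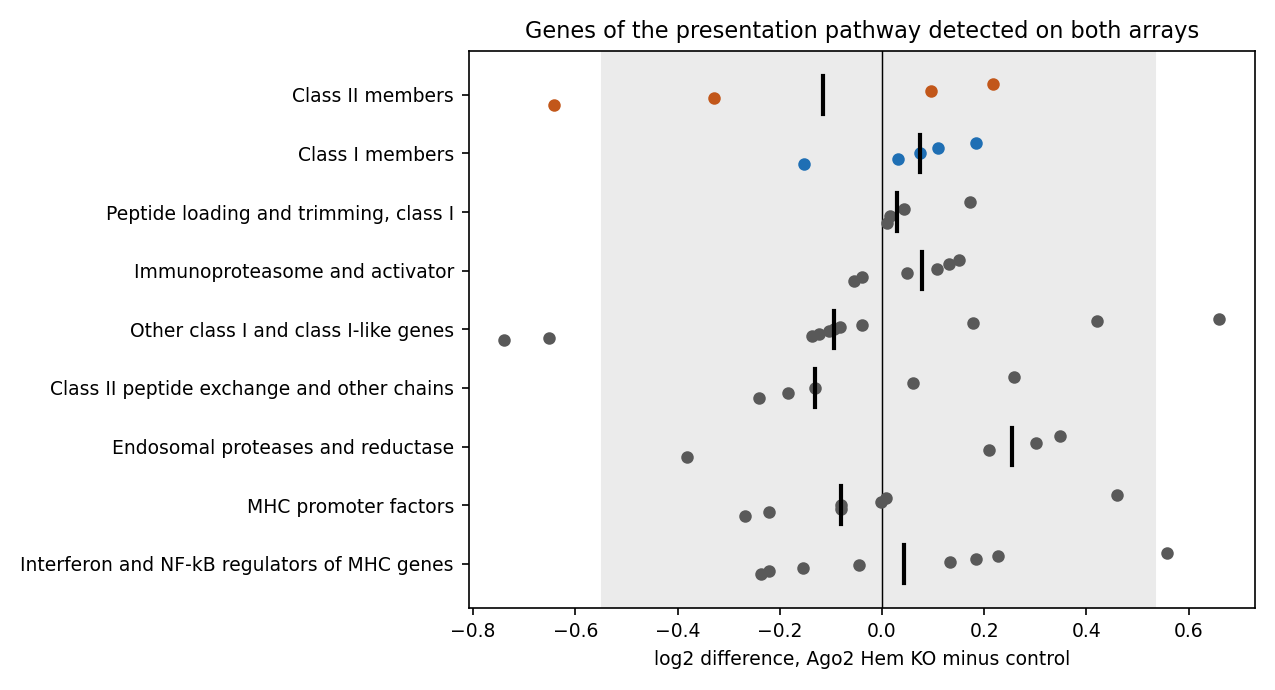
Log2 differences of the pathway genes detected on both arrays, a point per gene and a row per list, with black bars at the medians and the central 95% of all genes shaded. H2-Eb1, Hfe and Fcgrt lie left of the band, and H2-Q6 and Ifngr2 right of it.

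Of the 10 members, 7 lie in 1 stretch of chromosome 17, from Tapbp to H2-D1, in the RefSeq gene order. The stretch holds 132 genes, of which 60 were detected on both arrays. Without the members, 21 of 53 detected genes there lay above 0 with a median of -0.08, beside -0.05 over all genes. H2-Ab1, H2-Aa and H2-Eb1 followed each other in the order of detected genes with differences of -0.33, 0.22 and -0.64, so these neighbours did not share a sign.

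**Figure D5:**
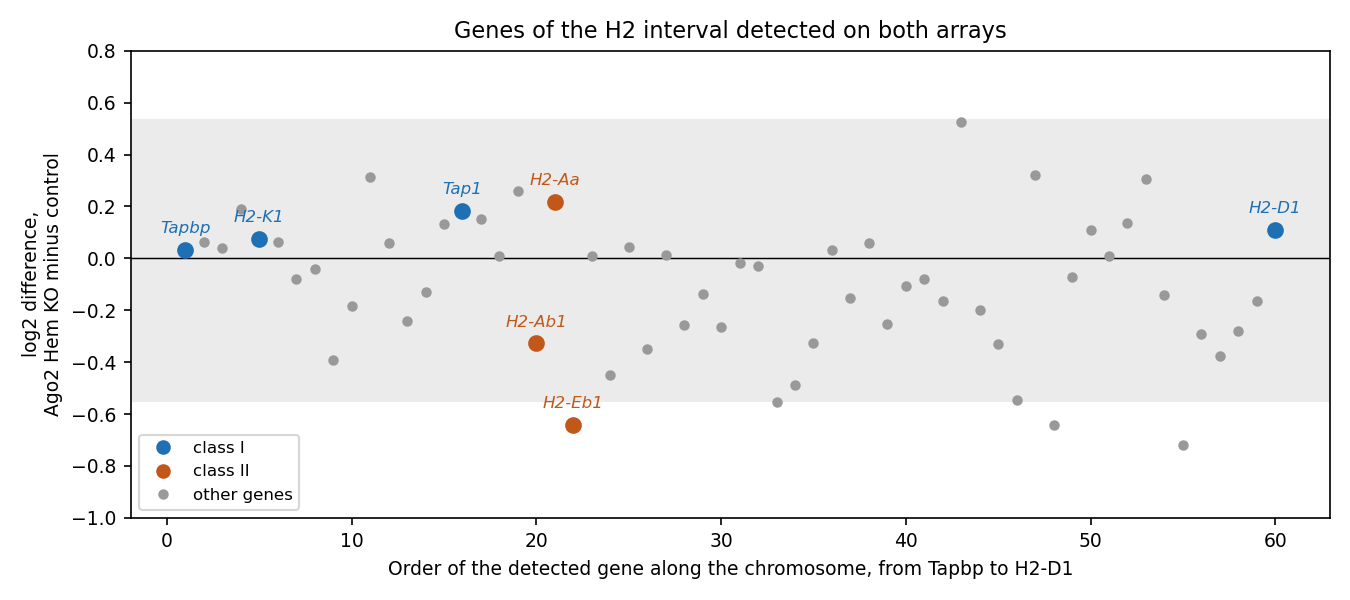
Log2 differences of the 60 detected genes from Tapbp to H2-D1 in their order along chromosome 17, members coloured by class and other genes grey, with the central 95% of all genes shaded. Neighbouring genes scatter on both sides of 0, and H2-Aa lies above 0 between H2-Ab1 and H2-Eb1.

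Class II genes are bright in mature antigen-presenting cells, so the markers of such cells are given beside the class II values. Of 9 dendritic cell markers, 0 were detected on either array. Of 6 B cell markers on the array, Cd79b (-0.41, signals of 570 and 515) and Ebf1 (-0.16) were detected on both, Fcrla in the Ago2 Hem KO sample only, and Ms4a1, Pax5 and Blk on neither. The summed signal of the 6, before normalization and with undetected ones included, was 1025 and 1020. Of 10 monocyte and macrophage markers, 4 were detected on both arrays, namely Csf1r (0.39, its dimmer probe -0.11), Cx3cr1 (0.36), Vcam1 (0.13) and Cd14 (-0.35), and 2 on neither. Another 4 were detected on the Ago2 Hem KO array only, as were 2.31% of all genes, with lower bounds of 1.09-fold for C1qa, 1.11-fold for Cd163, 2.75-fold for C1qb and 2.94-fold for C1qc. The summed signal of all 10 monocyte and macrophage markers, before normalization and with undetected ones included, was 1895 and 2385. Vcam1 alone gave 888 and 1128 of it. The part of B cells, macrophages and T or NK cells in the class II values was not tested, and in sorted cells measured in bulk, fewer cells of a type and less RNA per cell cannot be told apart. Of 8 T and NK cell markers, Cd3e, Cd3d, Cd3g, Cd4 and Cd8a were detected on neither array. The other 3 were detected on both: Nkg7, with signals of 7038 and 6366, was at -0.35, Thy1, with signals of 150 and 132, at -0.70 (1.63-fold lower), and Prf1, with signals of 131 and 176, at 0.45. The summed signal of the 8 was 7761 and 7134, most of it from Nkg7. The summed signals of the marker lists include background and the difference in brightness between the arrays, so they do not measure amounts of a cell type.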

How the data were processed

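Total RNA of 2 LSK samples was measured on Illumina bead arrays, 1 per genotype. The deposited non-normalized table holds a linear bead intensity per probe and array, per the file headers, with no normalization between arrays. A detection p-value for each intensity is deposited beside it. The submitters' processing notes name BeadStudio and give no version. The authors also deposited a table of intensity values whose sorted columns differ by at most 0.175, and the sources used here do not give its normalization.

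With limma 3.58.1 in R 4.3.3, background mean and SD were estimated from those p-values (84.7 and 4.20 for the control, 87.8 and 4.38 for Ago2 Hem KO). Normexp correction, an offset of 16, quantile normalization and log2 followed. The offset shrinks differences of dim probes, and quantile normalization removes a shift shared by most genes. Probes were named through the platform annotation, with symbols updated from the RefSeq table of GRCm38.p6 (34807 of 34885 probes with 1 symbol matched). The brightest probe detected on both arrays stands for a gene. Where only 1 array detected a gene, a lower bound of the fold is given, against the dim probe's value or the lowest detected value of the dim array, whichever is higher. The steps were also run on simulated data with known folds, a simulated knockout array against the control array (8434 genes). Of genes simulated at 4-fold 100% passed 2-fold, of those at exactly 2-fold 14%, and of 8241 unchanged genes 0%. Of genes simulated at 0.25-fold 100% passed, and of those at 0.5-fold 22.9%. The simulated noise was a chosen setting and not estimated from these arrays, so the 0% is not a rate of false calls in these data.

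With 1 array per genotype there is no test. The alternatives are an offset of 50 or no background correction, cyclic loess or scaling to the same median, a detection p under 0.05 or no filter, the mean of the detected probes, and the values the authors deposited. The 10 members were named with all probes. From each pathway list, genes at 1.5-fold or more, the highest and lowest, and genes detected on 1 array were taken by rule. Other genes named beside them, among them H2-Q8, H2-Q7, the Psmb genes and Irf1, were added after their values were seen. The members and the lists were chosen with earlier results of these data known.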

Additional observations from a re-analysis of the deposited data

How the results depend on the processing

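No value has a replicate error, so a value was counted as moved where it shifted by more than 0.21, the SD of log2 differences between probes of the same gene, which is a spread of single genes and not of list medians, and a count where it changed more than 1.5 times. Of 128 values under the 8 alternatives, 117 stayed within these limits and 11 moved. The limit of 0.21 is larger than the class medians and the difference between them. A value could therefore change sign and still count as having stayed, as the class II median did with arrays scaled to the same median. The count of 117 thus does not show that signs or small differences are stable. Many of the 128 values could not move. Changing the detection filter left each detected member gene at the same value, and averaging probes left a gene with a single detected probe unchanged. With no detection filter the class II median was 0.10 in place of -0.12 and the difference of class II minus class I 0.021 in place of -0.19, since the undetected Ciita enters as the fifth class II gene. With the mean of the detected probes, 2 class I genes lay above 0 in place of 4, because H2-K1 (-0.02) and Tapbp (-0.41) changed sign with their dimmer probes, as did Cd74 (-0.09). With arrays scaled to the same median, 37 of 45 further pathway genes lay above 0 in place of 22, the class II median was 0.08 and the class I median 0.27, while the difference between them was -0.19. Over the other alternatives that difference ran from -0.16 to -0.23. The number of members at 2-fold was 0 in all 9 settings. Among single genes, H2-Eb1 ran from -0.64 to -0.39, H2-Ab1 from -0.41 to -0.13, H2-Aa from 0.08 to 0.43, Tap1 from 0.14 to 0.40 and H2-D1 from 0.10 to 0.30. None of them changed sign, though the background step, offset and detection filter could not change their signs. H2-Aa, the dimmest Cd74 probe and Ciita are limited by signal over background. No paired analysis was possible because each genotype has 1 array, so the genotypes share fewer than 2 replicate numbers.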
